A study of Mus musculus with 6 samples.

Results

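The genes described here make, store and break down biogenic amines or encode the precursors of opioid peptides, and they were chosen by name for these roles, not by their levels. All 10 (Ddc, Gch1, Tph1, Hdc, Slc18a1, Slc18a2, Maoa, Maob, Pomc and Penk) were among the 23420 genes of the table. RNA was sequenced from tuft cells of the ileum in 6 libraries, which form 1 group and are labelled as mouse replicates 1 to 6. The mice were on the C57BL/6J background and were heterozygous for the Gfi1b-eGFP allele, which expresses green fluorescent protein from the locus of Gfi1b, a transcription factor gene of tuft cells that is also active in blood cell precursors. Cells were sorted as positive for the reporter and for the epithelial protein EpCam and negative for CD45 and propidium iodide, and no other treatment is given. The methods give an age range for all mice of the study that spans young adulthood, but exact age and any pooling of animals are not stated per library, so the p-values given below measure only the spread between these libraries, which may be partly technical. Expression is given as TPM, a share of all transcripts that corrects for transcript length and has the same total in each library, so that levels of different genes can be compared but the sequencing depth is unknown.

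Serotonin is made from tryptophan by tryptophan hydroxylase (Tph1 outside the brain) and then by the aromatic amino acid decarboxylase Ddc, which also makes dopamine. Histamine is made from histidine in a single step by Hdc. Gch1 begins the synthesis of tetrahydrobiopterin, the cofactor of the tryptophan and tyrosine hydroxylases, Slc18a1 (VMAT1) and Slc18a2 (VMAT2) load amines into vesicles, and Maoa and Maob oxidise them at the outer mitochondrial membrane. Pomc and Penk encode precursor proteins that are cut into several peptides, among them beta-endorphin and the enkephalins. In the gut wall, most serotonin comes from enterochromaffin cells, a kind of enteroendocrine cell, and histamine from mast cells and from endocrine cells of the stomach, while tuft cells are better known as a source of acetylcholine, eicosanoids and IL-25.

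Maoa dominated the set, and the enzymes that commit an amino acid to serotonin or histamine, the vesicular transporters and the opioid precursors were low or listed at 0 in most libraries. Summed over the 10 genes, the libraries held between 70.4 and 79.6 TPM, of which Maoa alone took 41.2% to 65.8% and Maoa, Gch1 and Ddc together 76.5% to 93.9%. Of the 10 genes, 4 (Maoa, Ddc, Gch1 and Maob) were above 0 in all 6 libraries, and the other 6 were above 0 in some libraries only. Over the whole table, 47.2% of genes were above 0 in all libraries. The mean was at least 10 TPM for 3 of the 10 genes and for 29.8% of all genes, and the median of the means was 1.69 TPM for the 10 genes and 1.24 TPM for all genes. Over the genes above 0 in any library, as all 10 were, that median was 7.67 TPM.

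**Figure D1:**
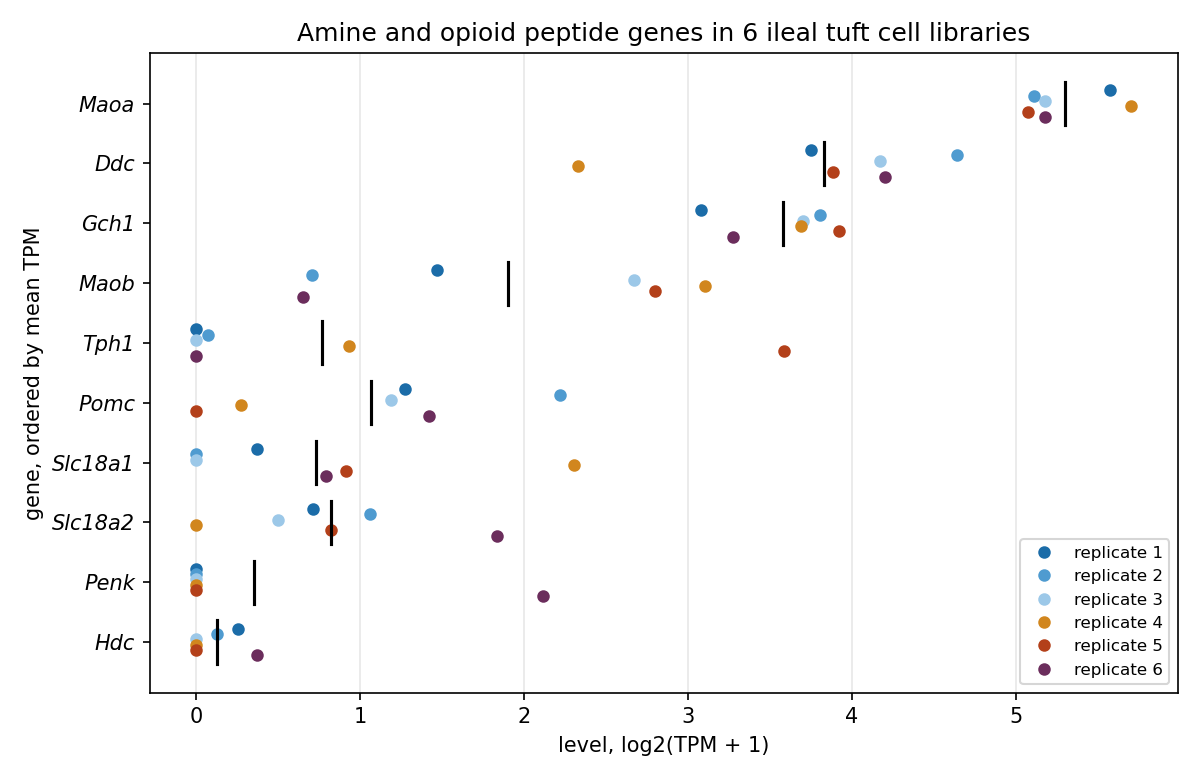
Level of each of the 10 genes on the log2(TPM + 1) scale (x axis), with genes ordered from top to bottom by mean TPM; each point is 1 of the 6 libraries and each black line the mean of the 6 values. Maoa lies to the right of every other gene in all libraries, while Tph1, Slc18a1 and Penk each have 1 library far to the right of the other 5.

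The libraries were checked against marker genes of the cell types that the sort could hold. All 13 tuft cell markers found in the table were above 0 in every library, among them Trpm5 and Alox5ap, and summed to between 6952 and 11748 TPM. Markers of other epithelial cells were also present. The sums ran from 7703 to 16268 TPM for 8 enterocyte genes (led by Fabp1, Fabp6 and Apoa1), from 4089 to 26976 TPM for 7 Paneth cell genes (led by Defa24, Defa22 and Defa17), from 1080 to 5320 TPM for 7 goblet cell genes (led by Zg16, Tff3 and Spink4) and from 387.4 to 538.8 TPM for 11 enteroendocrine genes, most of it Sct. They ran from 38.4 to 269.1 TPM for 9 genes of intraepithelial lymphocytes (led by Gzma, Nkg7 and Gzmb). In such bulk RNA, fewer cells of a type and less RNA per cell cannot be told apart, and the cell of origin of each transcript was not measured. Rn45s, the ribosomal RNA precursor, took 23.1% to 32.6% of the TPM, and Gm20594 had 15588 to 21283 TPM in replicates 1 to 3 against 51804 to 56441 TPM in replicates 4 to 6.

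Because several of these genes are related in sequence, their coding parts were compared first. Maoa and Maob, neighbours on the X chromosome, were identical at 71.3% of 1548 aligned coding positions, and their longest identical stretch had 35 bases. The vesicular transporters were identical at 68.5% of 1526 positions and the decarboxylases Ddc and Hdc at 65.7% of 1421, with longest identical stretches of 15 and 16 bases. These stretches are shown because they mark how long a stretch could match both members of a pair without a mismatch. The mapping by the authors allowed a mismatch, so these lengths set no limit on the reads that could match both. The transcript sequences come from GENCODE M21 on GRCm38 and run 5′ to 3′, with the shared bases in capitals and 10 flanking bases on each side in lower case. In both monoamine oxidase genes the printed bases span an exon junction, so that the genomic intervals include an intron.
Maoa, chrX:16680862-16682245, plus strand: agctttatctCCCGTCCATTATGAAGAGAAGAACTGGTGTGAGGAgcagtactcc
Maob, chrX:16716439-16718265, minus strand: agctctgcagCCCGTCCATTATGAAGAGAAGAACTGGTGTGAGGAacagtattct
Slc18a1, chr8:69051301-69051335, minus strand: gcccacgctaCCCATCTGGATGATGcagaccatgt
Slc18a2, chr19:59276530-59276564, plus strand: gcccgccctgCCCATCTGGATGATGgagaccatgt
Ddc, chr11:11873213-11873248, minus strand: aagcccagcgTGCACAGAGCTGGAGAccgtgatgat
Hdc, chr2:126606442-126606477, minus strand: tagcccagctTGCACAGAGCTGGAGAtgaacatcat

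Pomc and Penk are related by the peptide they encode more than by their coding sequence, which was identical at 57.5% of 680 aligned positions. The coding part of Pomc held the 5 codons of Met-enkephalin 1 time, where beta-endorphin begins, and that of Penk held them 6 times and those of Leu-enkephalin 1 time. The Pomc copy, the first Penk copy and the Leu-enkephalin copy are shown, with the 5 peptide codons in capitals and the 2 codons on each side in lower case. The codons before each of the 3 copies encode paired basic residues, at which prohormone convertases cut, and in both Penk copies shown the codons after it do so too.
Pomc, chr12:3960367-3960393, plus strand: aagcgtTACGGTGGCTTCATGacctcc
Penk, Met-enkephalin, chr4:4134328-4134354, minus strand: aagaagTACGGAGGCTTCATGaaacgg
Penk, Leu-enkephalin, chr4:4133935-4133961, minus strand: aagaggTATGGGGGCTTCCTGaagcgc

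Every listed step of cofactor synthesis was represented. Gch1 (ENSMUSG00000037580.10; chromosome 14 of GRCm38, 47153895 to 47189413, minus strand, 6 exons) had 7.46 TPM in its lowest library, a median of 11.96 TPM and 14.2 TPM in its highest. Its mean was 11.2 ± 2.58 TPM (SD, n = 6), and the highest library was 1.90 times the lowest. Among the genes listed above 0 in the same library, Gch1 stood between the 40.5th and the 59.0th percentile. All 8 genes of tetrahydrobiopterin synthesis and recycling were above 0 in all libraries, with a median of their means of 27.6 TPM. Pcbd1, which helps to regenerate the cofactor after each hydroxylation, was the most abundant, at 220.9 ± 46.1 TPM. Qdpr, the reductase that completes the regeneration, had 58.3 ± 10.6 TPM, and Pts, which acts after Gch1, had 35.5 ± 4.73 TPM (SD, n = 6 each).

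The hydroxylases that use this cofactor were low or listed at 0. Tph1 (ENSMUSG00000040046.14; chromosome 7, 46644641 to 46672537, minus strand, 11 exons) had 0, 0.05, 0, 0.91, 11.03 and 0 TPM in replicates 1 to 6. Only replicate 5 was above 1 TPM, and without it the mean fell from 2.00 to 0.192 TPM. Tph2, the neuronal tryptophan hydroxylase, and Th, the tyrosine hydroxylase that begins catecholamine synthesis, were listed at 0 in all 6 libraries, as were Dbh, which turns dopamine into noradrenaline, and the melatonin genes Aanat and Asmt. Pnmt, which makes adrenaline, was at 0.27 TPM in replicate 6 and listed at 0 elsewhere. Of the 8 genes of serotonin, catecholamine and melatonin synthesis, 5 were thus at 0 in every library and 1, Ddc, was above 0 in all.

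In replicate 5, where Tph1 was high, some markers of endocrine cells and the stromal gene Dcn were also at their highest. The 8 enterochromaffin genes summed to 74.1 TPM there and to between 3.93 and 60.8 TPM elsewhere. Reg4 made up most of that and was also high in replicate 4, where it had 59.9 TPM against 69.2 TPM in replicate 5. Tac1 had 2.68 TPM in replicate 5 and 6.98 TPM in replicate 6, Ucn3 was above 0 in replicate 5 only, at 1.62 TPM, and Trpa1 and Slc38a11 were at 0 throughout. The granule protein genes Chga and Chgb had 40.4 and 59.6 TPM in replicate 5, while Sct was at 358.2 TPM within its range of 330.8 to 473.6 TPM and Sst and Pyy were at 0. The enteroendocrine list as a whole summed to 476.6 TPM in replicate 5, below replicates 2 and 3. Of the stroma and endothelium list, Dcn was at 59.4 TPM in replicate 5 and at 0 in the other 5 libraries. Col1a1 (1.51 TPM), Col3a1 (1.01 TPM), Acta2 (0.25 TPM) and Pdgfra (0.03 TPM) were also above 0 in replicate 5 only. Pecam1 was above 0 in replicate 6 only, at 0.28 TPM, and Col1a2 and Lum were at 0 throughout. The part of these cells in the Tph1 level was not tested.

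Ddc (ENSMUSG00000020182.16; chromosome 11, 11814101 to 11898144, minus strand, 15 exons) was above 0 in all libraries, at 4.03 TPM in its lowest library, a median of 15.4 TPM and 24.0 TPM in its highest. Its mean was 14.8 ± 6.61 TPM (SD, n = 6), and it varied 5.95-fold, more than Gch1. The lowest library was replicate 4, which had the highest sum of Paneth cell markers (26976 TPM), and the highest was replicate 2, which had the lowest sum (4089 TPM). Between these extremes the order was not kept. In replicates 1, 3, 5 and 6 the sums were 7529, 4455, 16356 and 8724 TPM, with Ddc at 12.47, 17.01, 13.79 and 17.42 TPM. Ddc is also expressed by enterocytes and endocrine cells. Enterocyte markers summed to 12416 TPM in replicate 2 and 12050 TPM in replicate 4, and were highest in replicate 1 (16268 TPM). Enteroendocrine markers were highest in replicate 2 (538.8 TPM) and lowest in replicate 1 (387.4 TPM), with 457.8 TPM in replicate 4. The part of other cells in the Ddc level was not tested. Ddc stood between the 29.6th and the 68.0th percentile of the genes above 0.

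Hdc, the histidine decarboxylase, had the lowest mean of the 10 genes, although by median Penk and Tph1 were lower. Hdc (ENSMUSG00000027360.5; chromosome 2, 126593667 to 126619299, minus strand, 12 exons) was at 0.19, 0.09 and 0.29 TPM in replicates 1, 2 and 6 and listed at 0 in replicates 3, 4 and 5, with a mean of 0.095 TPM that fell to 0.056 TPM without replicate 6. Mast cells and basophils are the blood cells known for Hdc. Of their 11 markers, 6 were at 0 in every library (Mcpt4, Mcpt8, Cma1, Tpsb2, Tpsab1 and Ms4a2), and Cpa3 and Fcer1a were above 0 in replicate 4 only, at 4.86 and 6.06 TPM. Kit, at 100.2 to 157.5 TPM, made up most of the sum of this list, which was 100.2 to 158.2 TPM, and Mcpt1 had 0 to 10.9 TPM. Hdc was listed at 0 in replicate 4, and whether mast cells or basophils contributed to the Hdc level was not tested.

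The gene of an enzyme that degrades histamine was far more abundant. Aoc1, the diamine oxidase of the gut lining, which the table lists as Abp1, had 73.5 TPM in its lowest library, a median of 133.9 TPM and 178.9 TPM in its highest, with a mean of 130.5 ± 40.5 TPM (SD, n = 6). How much of the Aoc1 RNA came from other epithelial cells was not tested. Hnmt, the methyltransferase that inactivates histamine inside cells, was at 0.54 TPM in replicate 3 and listed at 0 in the other 5 libraries.

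Both vesicular amine transporters were scarce. Slc18a1 (ENSMUSG00000036330.12; chromosome 8, 69037711 to 69089235, minus strand, 17 exons), the transporter of endocrine cells, had 0.29, 0, 0, 3.94, 0.88 and 0.73 TPM in replicates 1 to 6. Replicate 4 lay apart from the rest, and without it the mean fell from 0.973 to 0.38 TPM. In replicate 4, Sst, the somatostatin gene of D cells, was also highest, at 79.2 TPM, and the enterochromaffin list summed to 60.8 TPM, of which Reg4 was 59.9 TPM. Chga and Chgb, at 1.90 and 1.22 TPM, were low in that library, and Tac1 was at 0. Whether endocrine cells contributed to the Slc18a1 level was not tested.

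Slc18a2 (ENSMUSG00000025094.8; chromosome 19, 59260896 to 59296012, plus strand, 16 exons), the transporter of neurons and mast cells, had 0.64, 1.08, 0.41, 0, 0.77 and 2.57 TPM in replicates 1 to 6. It was listed at 0 in replicate 4, where Slc18a1 was highest, and the mean fell from 0.912 to 0.58 TPM without replicate 6. In GENCODE, 111 exonic bases of Slc18a2 are shared with Gm29261 on the opposite strand. The strand setting of the quantification is not given in the sources used here, and without it reads from these bases could belong to either gene.

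Other amine transporters included more abundant ones. Slc6a4, the serotonin uptake transporter, was above 0 in all libraries, with 7.47 TPM in the lowest, a median of 9.98 TPM and 20.6 TPM in the highest. It exceeded Tph1 in 5 of 6 libraries, and in replicate 5, where Tph1 was at 11.03 TPM, it was at 7.47 TPM. Whether other epithelial cells contributed to the Slc6a4 level was not tested. Slc18b1, a vesicular polyamine transporter, had 3.78 to 10.6 TPM. The noradrenaline transporter Slc6a2 reached 0.13 TPM at most, and the dopamine transporter Slc6a3 was listed at 0 throughout.

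Of the 12 pathway lists, amine breakdown and conjugation had the highest summed level, 636.3 to 1065 TPM, most of it from Aldh2 and Aldh3a2. By the median of its 11 gene means, 12.1 TPM, it was below cofactor synthesis (27.6 TPM) and opioid peptide breakdown (15.5 TPM). Maoa (ENSMUSG00000025037.6; chromosome X, 16619698 to 16687818, plus strand, 15 exons) had 32.7 TPM in its lowest library, a median of 35.2 TPM and 51.0 TPM in its highest. Its mean was 39.1 ± 7.78 TPM (SD, n = 6), the highest library was 1.56 times the lowest, and it stood between the 75.6th and the 85.3rd percentile of the genes above 0. Replicates 4 and 1 were the highest, at 51.0 and 46.7 TPM, and the other 4 lay between 32.7 and 35.2 TPM. The enterocyte markers summed to 16268 TPM in replicate 1, their highest, and to 12050 TPM in replicate 4. In replicate 2, where Maoa was at 33.55 TPM, they summed to 12416 TPM, more than in replicate 4. The part of enterocytes in the Maoa level was not tested.

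Maob (ENSMUSG00000040147.14; chromosome X, 16709282 to 16817366, minus strand, 15 exons) lies 21463 bases beyond the end of Maoa, and their 3′ ends face each other. It had 1.77, 0.63, 5.36, 7.58, 5.97 and 0.57 TPM in replicates 1 to 6, a mean of 3.65 ± 3.03 TPM (SD, n = 6) that varied 13.3-fold. Replicates 3, 4 and 5 were high and replicates 1, 2 and 6 low. Maoa exceeded Maob in 6 of 6 libraries, by 5.48 to 61.6 times in TPM. Across libraries they did not order alike, since replicate 1 was second highest for Maoa and among the low libraries for Maob.

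Of the 11 genes of amine breakdown and conjugation, 8 were above 0 in all libraries. Aldh2 and Aldh3a2, aldehyde dehydrogenases that can oxidise the aldehydes left by monoamine oxidase among many other substrates, had 525.3 ± 118 and 163.4 ± 50.9 TPM (SD, n = 6 each). Nat1, an arylamine acetyltransferase gene, and Aoc3, an amine oxidase of vessels and fat, were listed at 0 in every library. Nat2, the other arylamine acetyltransferase gene of the list, had 5.46 to 29.8 TPM.

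**Figure D2:**
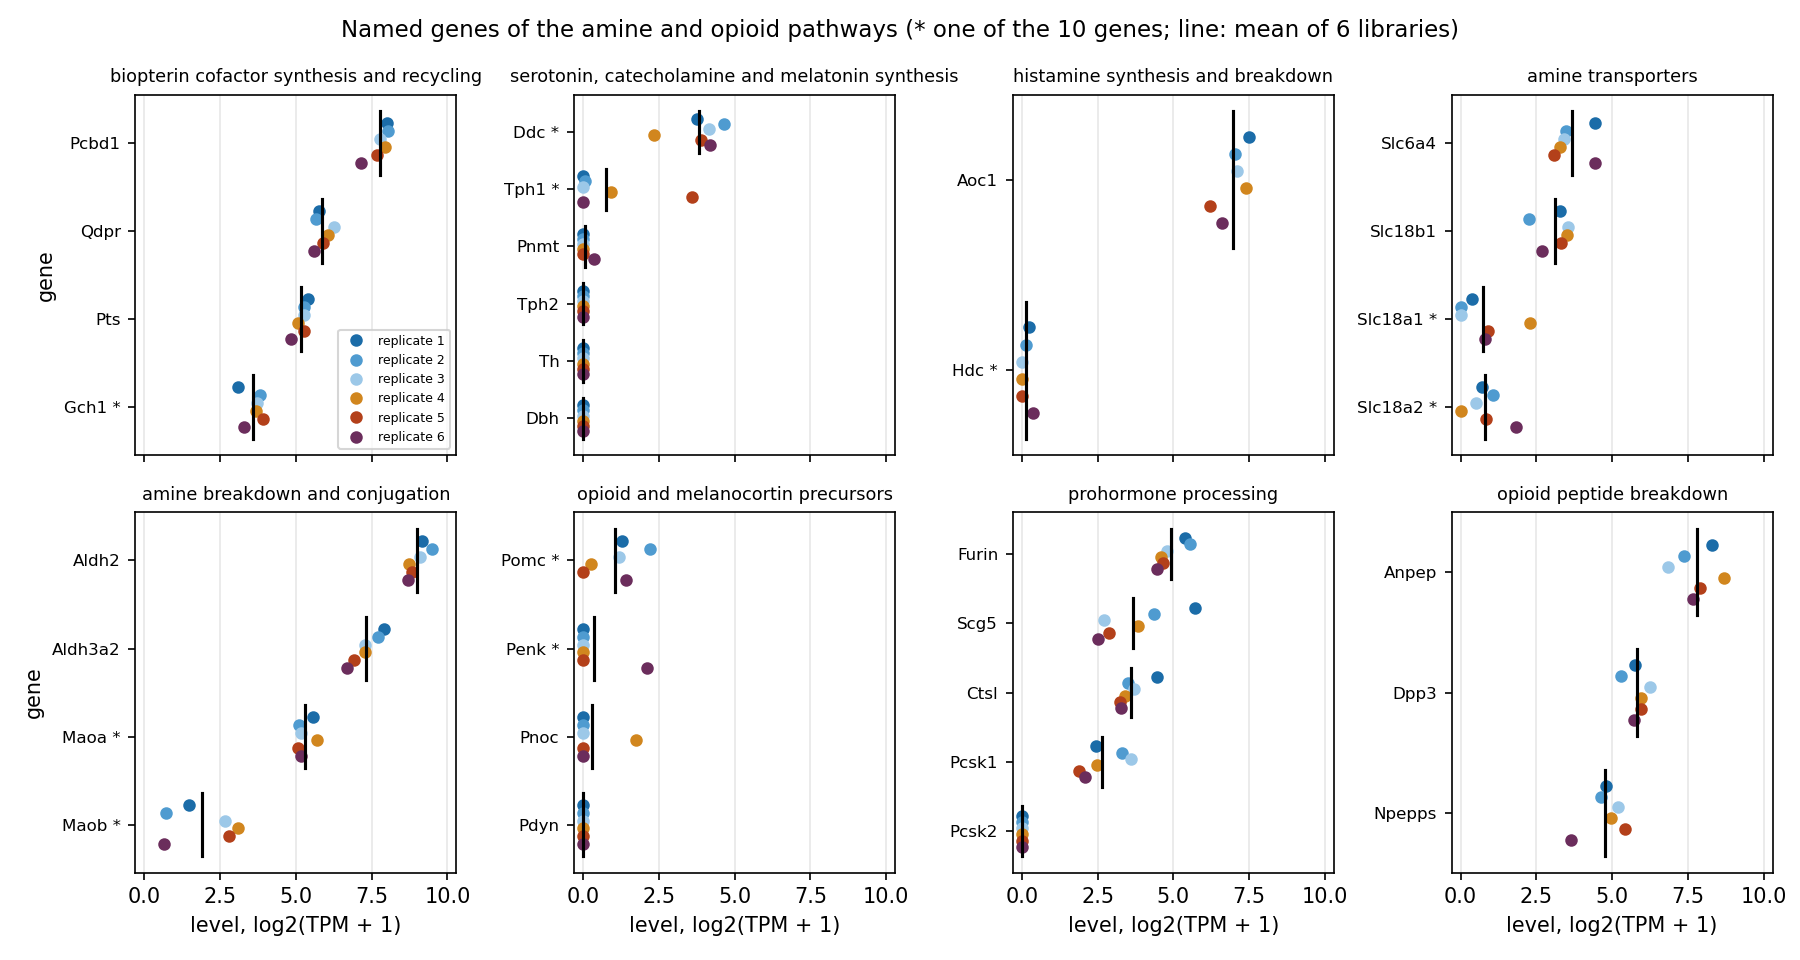
Level on the log2(TPM + 1) scale (x axes) of the named genes in 8 lists of the amine and opioid pathways, with 1 point per library, the mean of the 6 libraries as a black line, and an asterisk at each of the 10 genes. The drawn genes of cofactor synthesis, amine breakdown (other than Maob) and peptide breakdown lie to the right. Apart from members, they were drawn as the most abundant of their lists, so this position follows in part from the choice. The means of the amine synthesis genes other than Ddc and of the opioid precursors lie to the left, and some of these genes were drawn whatever their level. Tph1 at 11.03 TPM in replicate 5, Pomc at 3.65 TPM in replicate 2 and Penk at 3.33 TPM in replicate 6 lie apart from the rest.

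The opioid precursors were near the bottom of the range. Pomc (ENSMUSG00000020660.6; chromosome 12, 3954951 to 3960642, plus strand, 4 exons) had 1.42, 3.65, 1.28, 0.21, 0 and 1.68 TPM in replicates 1 to 6. It was above 1 TPM in 4 libraries, lower in replicate 4 and listed at 0 in replicate 5, and where above 0 it stood between the 5.26th and the 26.5th percentile. Penk (ENSMUSG00000045573.9; chromosome 4, 4133531 to 4138819, minus strand, 2 exons), whose 7 enkephalin copies are described above, had 3.33 TPM in replicate 6 and was at 0 in the other 5 libraries. That library also had the highest sums of lymphocyte markers (269.1 TPM) and of goblet cell markers (5320 TPM). Replicate 5, where Penk was at 0, had the next highest sums, 225.2 and 3060 TPM. The sort took cells negative for CD45, which lymphocytes carry, and 7 of the 9 lymphocyte markers were above 0 in all libraries. The part of either cell type in the Penk level was not tested. Penk shares 233 exonic bases with A830012C17Rik, a noncoding gene on the opposite strand, so its value in replicate 6 is uncertain to that extent. Of the other opioid precursor genes, Pdyn was listed at 0 in all libraries and Pnoc was at 2.35 TPM in replicate 4 and at 0 elsewhere.

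Of 8 genes that process such precursors, 5 were above 0 in all libraries, 2 in some and 1 in none. Furin, a convertase of the constitutive secretory pathway, had 21.2 to 46.2 TPM. Pcsk1, a convertase of endocrine granules, had 2.70 to 11.2 TPM, while its companion Pcsk2 was listed at 0 in all libraries. Scg5, which encodes the chaperone of the Pcsk2 product, had 4.65 to 19.7 TPM in replicates 2 to 6 and 51.8 TPM in replicate 1. Ctsl, a lysosomal protease, had 8.48 to 21.2 TPM, and Cpe, which removes basic residues from the cut peptides, had 0 to 3.44 TPM. All 7 genes of peptidases that break down opioid peptides were above 0 in every library, led by Anpep at 240.3 ± 109 TPM, Dpp3 at 56.7 ± 12.6 TPM and Npepps at 28.4 ± 10.6 TPM (SD, n = 6 each). Anpep is also a digestive enzyme of enterocytes.

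**Figure D3:**
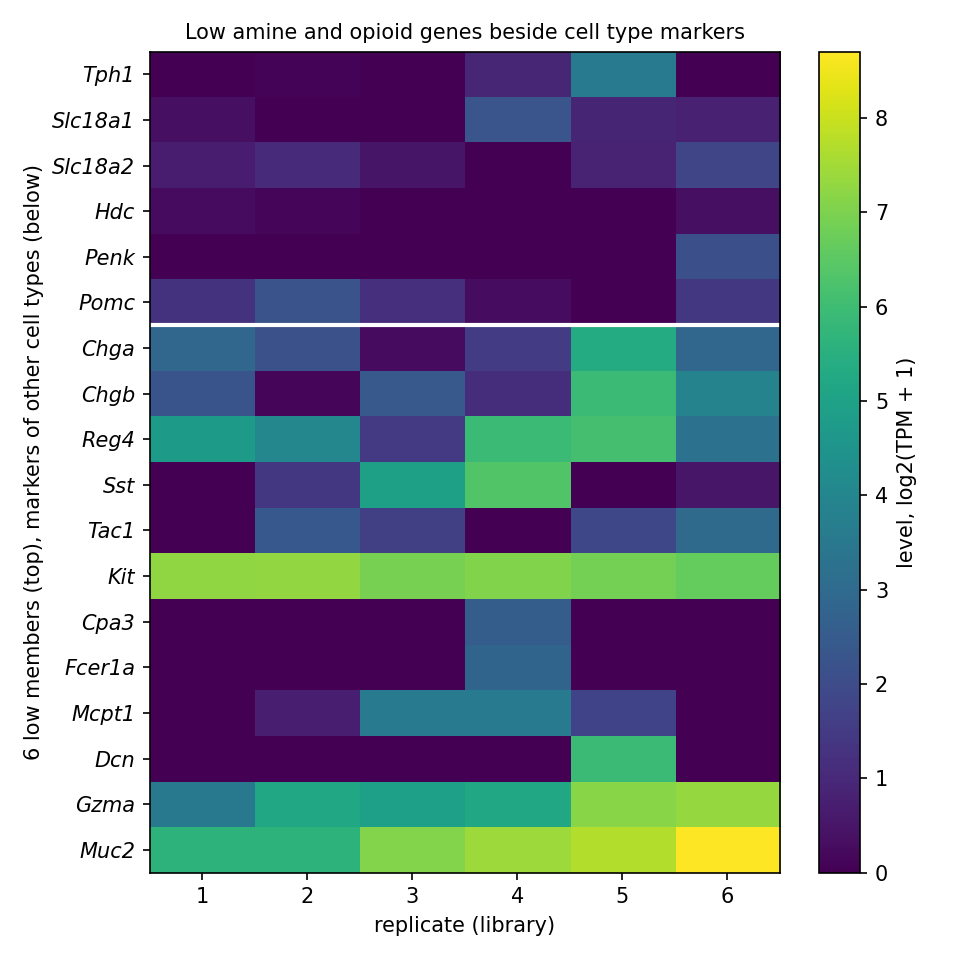
Levels on the log2(TPM + 1) scale (colour) in replicates 1 to 6 (columns) of the 6 members with means of 2.00 TPM or less, above the white line, and of selected markers of endocrine cells (Chga to Tac1), mast cells and basophils (Kit to Mcpt1), stroma (Dcn), lymphocytes (Gzma) and goblet cells (Muc2) below it. The only bright cell of Tph1 is in replicate 5 (11.03 TPM), as are those of Dcn (59.4 TPM) and the brightest of Chga and Chgb, while Penk appears in replicate 6 and Slc18a1 is highest in replicate 4. Genes of these lists that are not drawn did not all follow. Of the other stroma genes, Col1a1, Col3a1, Acta2 and Pdgfra were like Dcn above 0 in replicate 5 only, at 1.51 TPM or less. Pecam1, Col1a2 and Lum were not, and 6 of the 11 mast cell and basophil markers were at 0 throughout. Sct and Gcg were highest in replicates 2 and 3.

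By mean TPM the order was Maoa, Ddc, Gch1, Maob, Tph1, Pomc, Slc18a1, Slc18a2, Penk and Hdc. Of the 9 neighbouring pairs in that order, Maoa over Ddc and Gch1 over Maob held in 6 of 6 libraries with a difference larger than its own SD, at 1.47 ± 1.03 and 1.68 ± 0.984 on the log2(TPM + 1) scale (SD, n = 6). Ddc exceeded Gch1 in 4 of 6 libraries, by 0.25 ± 0.860, and could not be ranked against it. The neighbours from Maob down to Hdc differed by less than the SD of their difference, and Tph1, placed above Pomc by replicate 5, was lower than Pomc in 4 of 6 libraries.

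A comparison of related genes within each library was made for 5 pairs on the log2(TPM + 1) scale, with an exact permutation test that flips the sign of each library's difference, is two-sided and cannot give a p below 0.03125 with 6 libraries. Maoa exceeded Maob by 3.40 ± 1.05 in 6 of 6 libraries (exact sign-flip permutation p = 0.03125, adjusted p = 0.0781). Ddc exceeded Hdc by 3.71 ± 0.756 in 6 of 6 libraries (exact sign-flip permutation p = 0.03125, adjusted p = 0.0781; SD, n = 6). Both stand at the smallest p the design allows and did not pass 0.05 after Benjamini-Hochberg adjustment over the 5 pairs, of which at least 4 would have to reach that p to pass. The exact Mann-Whitney test, which the methods name for comparing samples and which ignores the library a value came from, gave an adjusted p of 0.00541 for each of these 2 pairs.

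The other 3 pairs were not separated. Slc18a2 exceeded Slc18a1 in 4 of 6 libraries, by 0.09 ± 1.25 (exact sign-flip permutation p = 0.875, adjusted p = 0.875). Without replicate 4 this difference was 0.57, and without replicate 2 or 6 it turned to -0.10. It was 0.63 within replicates 1 to 3 and -0.45 within replicates 4 to 6. Pomc exceeded Penk in 4 of 6 libraries, by 0.71 ± 1.05 (exact sign-flip permutation p = 0.1875, adjusted p = 0.3125), at 1.56 within replicates 1 to 3 and -0.14 within replicates 4 to 6. The difference between Hdc and Tph1 was -0.64 ± 1.52 (exact sign-flip permutation p = 0.5, not past 0.05 after adjustment; SD, n = 6 each), and without replicate 5 it was -0.05. Within replicates 1 to 3 it was 0.10 and within replicates 4 to 6 it was -1.38. Thus 0 of 5 pairs passed after adjustment by the sign-flip test, 2 at an unadjusted p under 0.05, and 2 by the Mann-Whitney test.

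**Figure D4:**
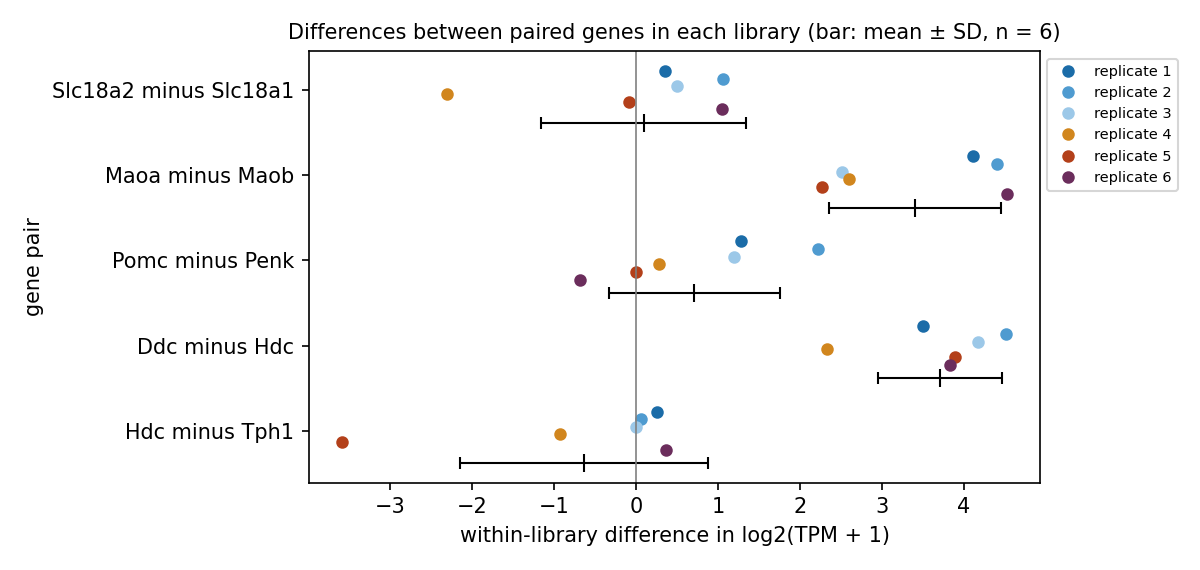
Difference in log2(TPM + 1) between the genes of 5 pairs (x axis), with 1 point per library and the mean ± SD of the 6 differences below the points. All 6 points lie above 0 for Maoa minus Maob (2.27 to 4.52) and for Ddc minus Hdc (2.33 to 4.52), and the points of the other 3 pairs fall on both sides of 0.

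Among 9349 genes with at least 1 TPM in every library, those whose levels followed Maoa most closely across the 6 libraries were Gyk, Sesn1 and Prkcd, with Pearson r of 0.991, 0.990 and 0.985 on the log2(TPM + 1) scale. For Ddc they were Sptlc2, 2310009B15Rik and Poc1b, with r of 0.991, 0.984 and 0.982. With 6 libraries and so many genes, r of at least 0.9 was reached by 39 genes for Maoa and 74 for Ddc, and these values describe likeness of pattern only.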

How the data were processed

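Tuft cell RNA was prepared with a modified SMART-Seq2 protocol, in which full-length polyadenylated RNA is reverse transcribed and amplified before library construction and paired-end sequencing. The labels also name a 3' polyA and a droplet preparation, which the methods do not describe. Reads were mapped by the authors to the mm10 transcriptome with Bowtie, and they deposited TPM calculated by RSEM, which shares reads that match several transcripts. The labels list TopHat too, with no role given. TPM keeps no read number, so no counting interval, detection limit or count model was used. Between 13044 and 13308 genes per library were above 0, and genes at 0 are called listed at 0, since a 0 can be a failed estimate (3 of 102 genes with an Rpl or Rps symbol were at 0 in all libraries).

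Columns were matched to replicates by number. Members and lists were chosen with earlier results of these data known. Named genes were the 10 members, the 3 most abundant genes of each pathway list with a mean of at least 1 TPM, 10 further synthesis, transport and processing genes, the 3 most abundant markers of each of 10 lists, and the 3 genes most like each of the 2 most abundant members. Some genes that meet the rule are not reported here. Genes named beyond it were chosen after their values were seen. Differences used log2(TPM + 1), a scale that understates changes of low genes. The sign-flip test enumerates 64 assignments and the Mann-Whitney test 924. Alternatives were pseudocounts of 0.1 and 0.01, setting values under 0.1 TPM to 0, TPM recomputed after removing Rn45s and Gm20594, median-of-ratios rescaling between libraries, omission of each library in turn, the Mann-Whitney test and splitting replicates 1 to 3 from 4 to 6. Positions and transcripts came from GENCODE M21 (GRCm38, the assembly of mm10), matched by symbol for 10 of 10 members. Gene models may differ from those of the authors. Statistics were tested on simulated data. The work used Python 3.11.15, numpy 2.4.6, pandas 2.3.3, scipy 1.17.1, matplotlib 3.10.9 and Biopython 1.88.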

Additional observations from a re-analysis of the deposited data

Results flagged for a closer look

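Dixon's ratio, the gap between the most extreme library and its neighbour divided by the whole range, passed its 95% critical value in 7 of the 38 named genes. Chance gives about 1 in 20, or 1.9 of 38, for normally distributed values, a rate that does not apply to genes with many zeros. In 3 of the 7 (Penk, Pnmt and Pnoc) the ratio is 1 by construction, because the other 5 libraries were at 0. Among the members, Tph1 was highest in replicate 5 (ratio 0.917), Slc18a1 in replicate 4 (ratio 0.777) and Penk in replicate 6 (ratio 1). Among the other genes, Pnmt in replicate 6 (ratio 1) and Pnoc in replicate 4 (ratio 1) were above 0 in a single library. Scg5 and Ctsl were both highest in replicate 1, with 51.8 TPM against at most 19.7 TPM elsewhere (ratio 0.681) and 21.2 TPM against at most 11.98 TPM elsewhere (ratio 0.725). The cause of these high values was not tested.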

How the results depend on the processing

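The direction of the mean difference of each of the 5 pairs was the same under both other pseudocounts, the filter on low values and both rescalings, and no adjusted sign-flip p passed 0.05 under them. The sizes grew with smaller pseudocounts, to 6.30 (pseudocount 0.1) and 8.26 (0.01) for Ddc minus Hdc and to 2.27 and 4.36 for Pomc minus Penk, pairs with zeros in the second gene. Within replicates 1 to 3 or 4 to 6, the 3 pairs other than Maoa minus Maob and Ddc minus Hdc changed direction. The exact Mann-Whitney test put Maoa minus Maob (3.40) and Ddc minus Hdc (3.71) past the threshold, each with an adjusted p of 0.00541, because it treats values of the same library as unpaired. Leaving out each library in turn gave 3.18 to 3.63 for Maoa minus Maob, 3.54 to 3.98 for Ddc minus Hdc, 0.41 to 0.99 for Pomc minus Penk, -0.84 to -0.05 for Hdc minus Tph1 and -0.10 to 0.57 for Slc18a2 minus Slc18a1. They carry no test, because 5 libraries cannot give a p below 0.0625. Leaving out 1 library kept the number of members above 0 in all libraries at 4 or raised it to 5. Median-of-ratios rescaling kept the mean TPM of all 10 members within 1 SD, and rescaling without Rn45s and Gm20594, which raised the means, moved 3 of them beyond it (Ddc to 21.4, Gch1 to 16.4 and Maoa to 56.8 TPM). That rescaling multiplied values by 1.33 to 1.61, and over 1.5 times for Tph1 (2.00 to 3.19 TPM), Penk (0.555 to 0.893 TPM), Slc18a1 (0.973 to 1.46 TPM) and Slc18a2 (0.912 to 1.38 TPM), within their wide SDs. No paired analysis was possible because the libraries form 1 group, so that replicate numbers pair no samples between groups, and the sign-flip test pairs genes within a library instead. Depth is unknown, so how many of the zeros reflect shallow sequencing cannot be given.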

Other observations

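Receptors for amines and opioid peptides were mostly listed at 0. Of 41 receptor genes for serotonin, histamine, dopamine, noradrenaline, opioids and melanocortins, 25 were at 0 in all libraries, 3 were above 0 in all and 4 had a mean of at least 1 TPM. Over the whole table, 7713 of 23420 genes were at 0 in all libraries, 47.2% were above 0 in all and 51.4% had a mean of at least 1 TPM. The 4 opioid receptor genes Oprm1, Oprd1, Oprk1 and Oprl1 were at 0 in every library, with the exception of 0.05 TPM of Oprd1 in replicate 4. Of the melanocortin receptor genes, Mc1r was above 0 in all libraries, at 0.05 to 0.56 TPM. The histamine receptor gene Hrh1 reached 1.00 TPM in replicate 5, and Hrh2, Hrh3 and Hrh4 were at 0.

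Drd3, which encodes a dopamine receptor, was the most abundant of these receptor genes, at 30.5, 13.2, 6.44, 6.65, 0 and 23.2 TPM in replicates 1 to 6, while Th was at 0 throughout. Adra2a, an adrenergic receptor gene, had 3.42 to 8.35 TPM and was above 0 in all libraries. Among serotonin receptor genes, Htr4 was above 0 in all libraries, at 0.21 to 2.47 TPM, and Htr1b reached 4.24 TPM in replicate 4 and was at 0 in replicates 1, 2 and 5. Enteric neuron and glia markers were low, with 0.12 to 6.84 TPM summed over 8 genes, of which Prph had up to 5.75 TPM, and with Elavl4 and S100b among the genes at 0.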
